A study of Mus musculus with 14 samples.

Results

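The peaks around 10 cell cycle regulators of stem cell activation were examined in CUT&Tag data of adult mouse muscle stem cells (MuSCs) stimulated with BMP6. The genes were Cdkn1a, Cdkn1b, Cdkn1c, Cdkn2a, Cdkn2c, Ccnd1, Ccnd2, Ccnd3, Myc and Mycn, which are 10 of the 21757 protein-coding genes in the annotation. Every consensus peak was taken that overlapped the canonical GENCODE transcript of a gene, on GRCm39, or the 20 kb on either side of it. For each peak, the position of its summit relative to the transcription start site (TSS) and its rank by signal within its list are given, with rank 1 as the strongest.

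The study asked where the transcription factors that BMP signaling activates bind in MuSCs. CUT&Tag cuts and tags the DNA next to an antibody-bound protein, and it was made with antibodies against pSMAD1/5/9, SMAD4 and H3K27ac, a histone mark of active promoters and enhancers. Per antibody and condition there were 2 biological replicates, which the authors combined into 1 consensus list, so 12 of the 14 samples entered 6 lists. The 2 libraries made with no primary antibody were not used here. Primary MuSCs came from 9-week-old female mice of the genotype C57BL/6N(Tg(Pax7-EGFP)Tajb), had been sorted for the GFP reporter of Pax7, and were cultured before use. Both groups had been kept for 6 h without serum and with 200 ng/mL BMPR1A-Fc, a soluble receptor that captures free BMPs. BMP6-stimulated cells then received 100 ng/mL BMP6 for 1 h, and control cells received the vehicle, 4 mM HCl with 0.1% BSA, and each library was made from 100000 lightly fixed cells. The cells had therefore been activated by isolation and culture, and they are not quiescent MuSCs of resting muscle.

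The lists held 7339 pSMAD1/5/9 peaks after BMP6 and 949 in control cells, 12860 and 8577 SMAD4 peaks, and 78050 and 67790 H3K27ac peaks. The ratio of BMP6 to control was 7.73 for pSMAD1/5/9, 1.5 for SMAD4 and 1.15 for H3K27ac, so with every antibody the BMP6 list was the longer one. Against its label, the cell type was checked by H3K27ac peaks within 2 kb of the TSS of marker genes, in both conditions. All 9 MuSC markers had such a peak, as did 4 of 6 genes of differentiated muscle, all but Myh2 and Myh4. None of the 3 fibro-adipogenic, 3 endothelial and 4 immune markers had one. Per the methods, the total depth had been made equal for each antibody. The number of reads behind a single peak is unknown, since the lists hold no read counts, and a gene without a peak is one at which none passed an irreproducible discovery rate (IDR) of 0.05, not one without reads.

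Progression from G1 into S phase depends on cyclin-dependent kinases (CDKs) that D-type cyclins switch on and that CDK inhibitors hold back. The Cip/Kip inhibitors p21, p27 and p57 are encoded by Cdkn1a, Cdkn1b and Cdkn1c, and the INK4 inhibitors p16 and p18 by Cdkn2a and Cdkn2c. When MuSCs leave quiescence, cyclins and Myc proteins drive growth and division, and CDK inhibitors support both the quiescent state and the permanent exit that precedes fusion into myofibers.

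The DNA at the summits is shown for the 4 pSMAD1/5/9 peaks at these genes, because they were listed in BMP6-stimulated cells without a control counterpart. The SMAD4 peak upstream of Cdkn1a is shown because it was listed in both conditions, and a stretch of the Myc SMAD4 peak because it holds the one bipartite SMAD motif among the peaks of these genes. Each line is read 5′ to 3′ on the plus strand of GRCm39, on which all of these genes are transcribed. The windows are 200 bp centred on the summit, except that the first stops at the TSS of Cdkn1b and holds 128 bases, and the last is the motif with 40 bases on either side. Capitals mark GGCGCC or GGAGCC on either strand, which is the site that BMP-activated SMADs prefer, CAGCTG, an E-box of myogenic factors, and in the last line the bipartite motif.
Cdkn1b, pSMAD1/5/9 at the TSS, chr6:134897236-134897363: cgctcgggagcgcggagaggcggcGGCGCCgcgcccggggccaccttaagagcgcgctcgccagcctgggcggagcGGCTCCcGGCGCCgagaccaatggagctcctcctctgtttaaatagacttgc
Cdkn1b, pSMAD1/5/9 downstream of the gene, chr6:134905493-134905692: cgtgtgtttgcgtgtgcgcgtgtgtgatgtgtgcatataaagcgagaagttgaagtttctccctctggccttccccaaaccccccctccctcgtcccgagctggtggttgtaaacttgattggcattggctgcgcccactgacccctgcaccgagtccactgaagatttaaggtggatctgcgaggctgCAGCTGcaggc
Ccnd3, pSMAD1/5/9 in the second intron, chr17:47906334-47906533: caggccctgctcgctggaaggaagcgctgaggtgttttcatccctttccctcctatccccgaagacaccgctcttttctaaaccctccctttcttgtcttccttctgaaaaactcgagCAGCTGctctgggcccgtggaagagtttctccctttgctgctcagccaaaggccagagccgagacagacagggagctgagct
Myc, pSMAD1/5/9 at the TSS, chr15:61856936-61857135: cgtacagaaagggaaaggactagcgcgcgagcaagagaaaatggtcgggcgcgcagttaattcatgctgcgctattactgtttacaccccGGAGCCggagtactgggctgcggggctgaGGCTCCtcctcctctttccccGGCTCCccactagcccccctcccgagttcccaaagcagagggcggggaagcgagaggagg
Cdkn1a, SMAD4 upstream of the gene, chr17:29297980-29298179: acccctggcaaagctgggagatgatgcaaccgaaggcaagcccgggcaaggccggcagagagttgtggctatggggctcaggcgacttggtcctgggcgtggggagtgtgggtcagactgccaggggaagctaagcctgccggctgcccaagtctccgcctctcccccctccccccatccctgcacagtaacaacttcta
Myc, bipartite motif in the SMAD4 peak, chr15:61856755-61856849: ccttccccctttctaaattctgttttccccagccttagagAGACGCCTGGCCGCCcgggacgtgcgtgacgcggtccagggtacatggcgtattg

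In the pSMAD1/5/9 list of BMP6-stimulated cells, 4 peaks lay within 20 kb of 3 of the 10 genes, Cdkn1b, Ccnd3 and Myc. At least 1 such peak was listed for 29.1% of all protein-coding genes, so the 3 of 10 were near the background. Not 1 of the 10 genes had a pSMAD1/5/9 peak in control cells, where the background was 5.97%. SMAD4 peaks numbered 7 at 4 genes after BMP6, Cdkn1a, Cdkn1b, Ccnd3 and Myc, beside a background of 39.3%. In control cells there were 6 SMAD4 peaks, also at 4 genes, Cdkn1a, Cdkn1b, Cdkn2c and Ccnd3, beside 30.8%. Cdkn1c, Cdkn2a, Ccnd1, Ccnd2 and Mycn were without a SMAD peak in all 4 lists. H3K27ac peaks numbered 28 in each condition and lay near 10 genes after BMP6 and 9 in control cells, and 74.8% and 73.4% of all genes had one.

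**Figure D1:**
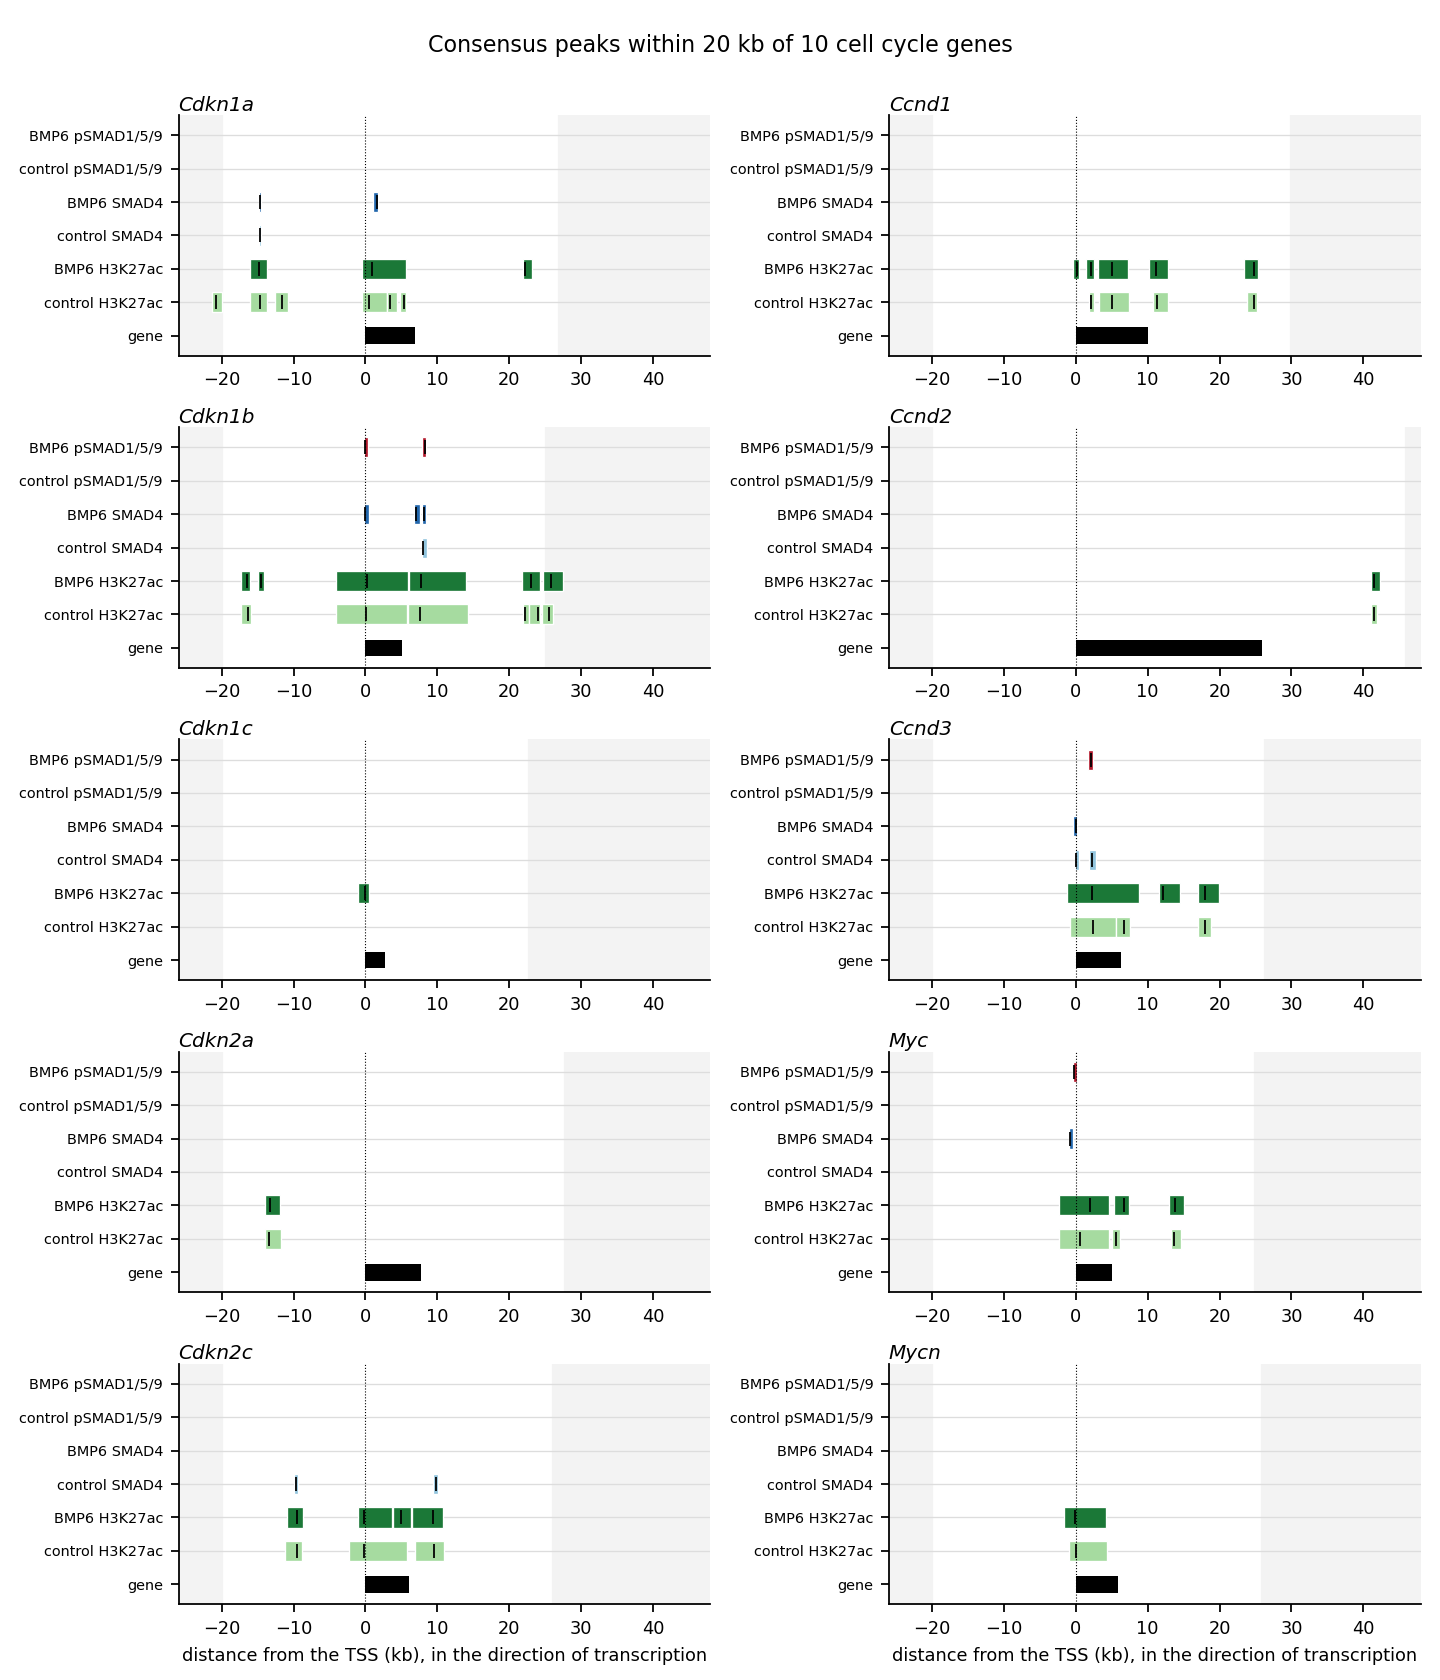
Consensus peaks around each of the 10 genes, with the distance from the TSS in kb on the x axis, positive in the direction of transcription, and 1 row per list. Bars span the peaks, short black lines mark the summits, the black bar is the gene, and grey lies outside the region searched. The 4 red pSMAD1/5/9 peaks are at Cdkn1b, Ccnd3 and Myc, and 5 genes have H3K27ac peaks without a SMAD peak.

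Since nearly all SMAD peaks of the lists lay in H3K27ac peaks, the shares were also taken over genes with an H3K27ac peak within 2 kb of the TSS in control cells, a restriction added after the values had been seen. Of the 10 genes, 7 carried that mark. Of these, 3 of 7 had a pSMAD1/5/9 peak after BMP6, beside 44.9% of the 11533 marked genes, and 4 of 7 had a SMAD4 peak after BMP6, beside 59.1%. In control cells the 7 genes had no pSMAD1/5/9 peak, beside 9.43%, and 4 of 7 had a SMAD4 peak, beside 47.1%.

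**Figure D2:**
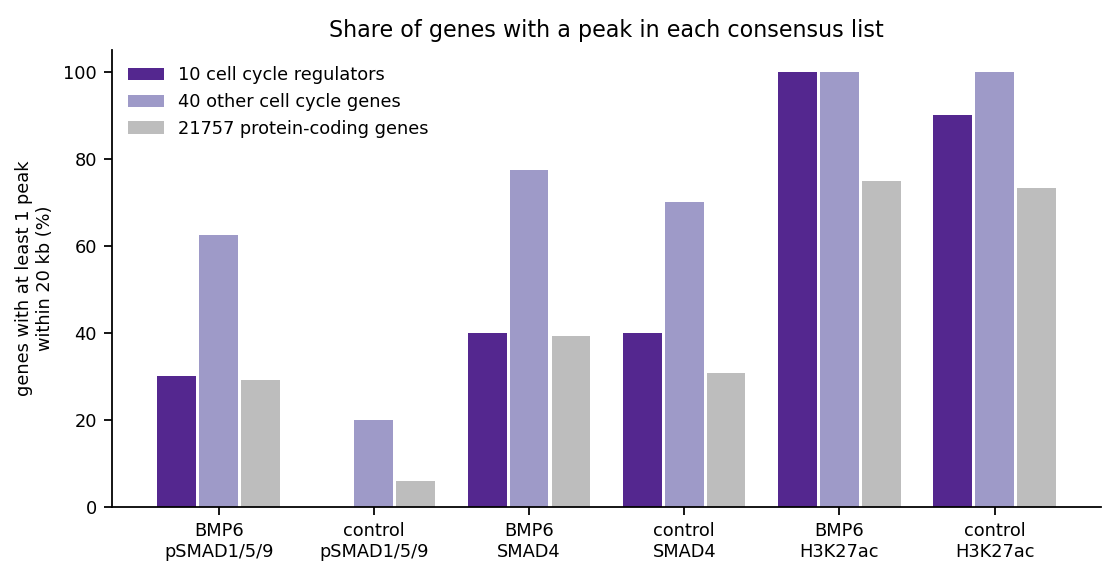
Share of genes with at least 1 peak within 20 kb, in percent, for each of the 6 lists. Bars stand for the 10 cell cycle regulators, 40 other cell cycle genes and all 21757 protein-coding genes. For pSMAD1/5/9 and SMAD4 after BMP6, the regulators sit next to the grey bars of 29.1% and 39.3%, below the other cell cycle genes.

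Among the Cip/Kip inhibitors, Cdkn1b held the most SMAD peaks of the 10 genes, 6 over all lists. Cdkn1b (ENSMUSG00000003031.15) lies on chromosome 6 between 134897364 and 134902476, plus strand, and encodes p27, which binds cyclin-CDK complexes and keeps cells in G1. A pSMAD1/5/9 peak of BMP6-stimulated cells spanned its TSS, from 134897179 to 134897760, with the summit 28 bp upstream. The signal score was 14829 in one replicate column and 8326 in the other, and the peak ranked 2864 of 7339 by the sum of both. A second pSMAD1/5/9 peak, from 134905231 to 134905860, had its summit 8229 bp downstream of the TSS, beyond the end of the gene. It was the stronger of the pair, with scores of 19866 and 10391 and rank 1844. By each replicate column alone it ranked 1473 and 2754, and the TSS peak 2384 and 3749, so the downstream peak led in both replicates. Both passed the stricter IDR of 0.01.

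SMAD4 was listed at the same places. After BMP6, a SMAD4 peak lay over the TSS of Cdkn1b with the summit 57 bp upstream and rank 2749 of 12860, and its scores were 14301 and 4331. Downstream of the gene there were SMAD4 peaks with summits at 7094 bp, rank 5031, and at 8217 bp, rank 5936. These downstream peaks were uneven between the replicates, with ranks of 3879 and 8914 for the former and of 4643 and 10258 for the latter, and neither passed an IDR of 0.01. In control cells, SMAD4 was listed at Cdkn1b once, 8056 bp downstream of the TSS, with rank 5028 of 8577. That control peak overlapped the SMAD4 peak at 8217 bp and the downstream pSMAD1/5/9 peak of BMP6-stimulated cells, but not the SMAD4 peak at 7094 bp. At the TSS no control peak of either factor was listed. The nearest annotated start to the downstream summit was that of the long non-coding RNA Lockd, 498 bp from the pSMAD1/5/9 summit, and Gm67968, another long non-coding RNA, starts 110 bp upstream of the Cdkn1b TSS. Both were named after their positions had been seen.

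Of the H3K27ac peaks of Cdkn1b, those over the TSS and directly downstream of the gene were among the widest in their lists. Its TSS lay in a peak of 10080 bp after BMP6, rank 738 of 78050, and of 9900 bp in control cells, rank 1268 of 67790. Only 0.874% of the BMP6 peaks and 0.639% of the control peaks were at least as wide. The adjoining downstream peak, of 7980 bp after BMP6 and 8300 bp in control cells, ranked 2103 and 2053 and covered the downstream SMAD peaks.

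Cdkn1a (ENSMUSG00000023067.16), on chromosome 17 between 29312738 and 29319701, plus strand, encodes p21, the inhibitor through which p53 arrests cells. No pSMAD1/5/9 peak was listed within 20 kb of it in either condition. SMAD4 was listed in both conditions at one place upstream, with the summit 14658 bp from the TSS after BMP6 and 14689 bp in control cells. This peak ranked 8130 of 12860 after BMP6, with scores of 4170 and 3286, and 3792 of 8577 in control cells, with scores of 4898 and 5970. Trp53cor1, a long non-coding RNA that p53 induces, starts 14696 bp upstream of the Cdkn1a TSS, which is 7 bp from the control summit, so this peak sits at the start of a different gene. After BMP6, a SMAD4 peak was also listed in the first intron of Cdkn1a, from 29313769 to 29314494, with the summit 1638 bp downstream of the TSS and rank 5410. Its scores of 8618 and 2658 were uneven, with ranks of 4441 and 8034, the replicate summits lay 480 bp apart, and the peak did not pass an IDR of 0.01.

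A larger group of SMAD peaks lay outside the region. With 50 kb on either side, Cdkn1a had 5 pSMAD1/5/9 peaks after BMP6 and 1 in control cells, and 7 and 5 SMAD4 peaks. All 5 pSMAD1/5/9 peaks were upstream, with summits between 30326 and 42906 bp from the TSS. The strongest of them, 37280 bp upstream, ranked 770 of 7339, and the control SMAD4 list had a peak 37171 bp upstream at rank 249 of 8577. By distance to the TSS, these 2 summits were closer to Srsf3, a splicing factor gene, at 24137 and 24246 bp. The pSMAD1/5/9 summits after BMP6 at 42906, 36997 and 35559 bp upstream were also closer to Srsf3. Of the 5, only that at 30326 bp, rank 7190 of 7339, was nearest to Cdkn1a. The share of all genes with a peak within 50 kb was not taken.

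H3K27ac at Cdkn1a was listed as 3 peaks after BMP6 and 6 in control cells, although the length covered was nearly equal, 9800 and 9763 bp. After BMP6, 1 peak of 6160 bp with rank 4155 ran from the TSS through most of the gene. In control cells the same stretch was listed as 3 peaks of 3500, 1300 and 800 bp, of which the one over the TSS ranked 1192. The other control peaks were upstream, with summits 20800, 14683 and 11593 bp from the TSS, and those at 20800 and 14683 bp met a BMP6 peak. A BMP6 peak 22271 bp downstream, with rank 46392, was nearer to the TSS of Rab44, a Rab GTPase gene, at 2000 bp.

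Cdkn1c (ENSMUSG00000037664.15), on chromosome 7 between 143012069 and 143014806, minus strand, encodes p57, an imprinted inhibitor. It had no SMAD peak. A single H3K27ac peak of 1540 bp lay over its TSS after BMP6 and none was listed in control cells. That peak was weak, with rank 62916 of 78050, with scores of 724 and 432, and it did not pass an IDR of 0.01, so the difference between the conditions rested on a peak near the threshold.

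Of the INK4 inhibitors, Cdkn2a (ENSMUSG00000044303.7) lies on chromosome 4 between 89192708 and 89200429, minus strand. It encodes p16, which blocks CDK4 and CDK6, and from a different first exon p19ARF, which stabilises p53. No SMAD peak and no H3K27ac peak within 2 kb of the canonical TSS was listed in either condition. The 1 H3K27ac peak in each list was upstream, with the summit at 13243 bp after BMP6, rank 11517, and at 13474 bp in control cells, rank 12031. The outermost annotated start of a Cdkn2a transcript is 12461 bp upstream of the canonical TSS, inside both peaks, so the mark was at the alternative first exon and not at the canonical one. The long non-coding RNA Gm12610, named after its position had been seen, starts 12988 bp upstream of the canonical TSS and so also lies there.

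Cdkn2c (ENSMUSG00000028551.16), on chromosome 4 between 109517957 and 109524043, minus strand, encodes p18, a further inhibitor of CDK4 and CDK6. It was the only one of the 10 genes with SMAD4 peaks in control cells and none after BMP6. A control SMAD4 peak lay 9598 bp upstream of its TSS, with scores of 5510 and 3841 and rank 4557 of 8577. That summit was 25 bp from the TSS of Faf1, a gene for a ubiquitin-binding protein, the nearest TSS to it. The other control SMAD4 peak lay 9847 bp downstream of the TSS, beyond the gene, with scores of 2671 and 2971 and rank 7346, close to the end of the list. Neither passed an IDR of 0.01. H3K27ac over the TSS of Cdkn2c ranked 2750 of 78050 after BMP6 and 583 of 67790 in control cells, as peaks of 4690 and 8000 bp. A further BMP6 peak of 2520 bp, rank 13675, lay beside that of 4690 bp, and the control peak of 8000 bp overlapped both. Of the region, 13860 bp were covered after BMP6 and 14300 bp in control cells.

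The D-type cyclins activate CDK4 and CDK6 and link growth signals to the cell cycle. Ccnd3 alone among them had SMAD peaks, and at this gene they were not limited to BMP6-stimulated cells. Ccnd3 (ENSMUSG00000034165.18) lies on chromosome 17 between 47904364 and 47910624, plus strand. A pSMAD1/5/9 peak of BMP6-stimulated cells from 47906011 to 47906742 had its summit in the second intron, 2070 bp from the TSS, with even scores of 14691 and 13750 and rank 2040 of 7339. Control cells had a SMAD4 peak at that place, with the summit at 2283 bp, scores of 13189 and 10126 and rank 1043 of 8577, which made it the highest ranked of the 17 SMAD peaks at the 10 genes. It was also wide, at 1023 bp, and only 4.98% of the control SMAD4 peaks were at least as wide. After BMP6 no SMAD4 peak was listed there. At the TSS the order was different, with SMAD4 listed in both conditions and no pSMAD1/5/9. Those SMAD4 summits lay in the first exon, 21 bp from the TSS after BMP6, rank 4039 of 12860, and 52 bp in control cells, rank 3706 of 8577.

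Longer transcripts of Ccnd3 start up to 88597 bp upstream of the canonical TSS. With all basic transcripts, Ccnd3 had 5 pSMAD1/5/9 peaks after BMP6 and 1 in control cells, and 7 SMAD4 peaks in each condition. The strongest pSMAD1/5/9 peak of this larger region lay 71472 bp upstream of the canonical TSS, from 47832526 to 47833500, with rank 489 of 7339. SMAD4 was listed at the same place in both conditions, with rank 1488 of 12860 after BMP6 and rank 541 of 8577 in control cells. All of these added peaks were nearer to the TSS of Taf8, which encodes a subunit of the general transcription factor TFIID, than to the canonical TSS of Ccnd3. Distances to the other starts of Ccnd3 were not taken. A pSMAD1/5/9 peak of BMP6-stimulated cells from 47815639 to 47816160, rank 6103 of 7339, covered the outermost start of Ccnd3 at 47815767. The only pSMAD1/5/9 peak of control cells among the added peaks ranked 943 of 949.

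H3K27ac covered the TSS of Ccnd3 in both conditions, in a peak of 9940 bp after BMP6, rank 4285, and 6300 bp in control cells, rank 3330. In control cells another peak of 2000 bp, rank 40477, directly adjoined the latter downstream. Both control peaks lay within the stretch of the BMP6 peak, so the widths of the TSS peaks alone overstate the difference. A last H3K27ac peak, 17997 bp downstream of the TSS after BMP6 and 17950 bp in control cells, was 108 and 155 bp from the TSS of Bysl, a ribosome biogenesis gene.

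Ccnd1 (ENSMUSG00000070348.7), on chromosome 7 between 144483668 and 144493662, minus strand, is the D cyclin most closely tied to mitogen signals. It had no SMAD peak. H3K27ac was strongest in the body of the gene rather than at its TSS, in a peak of 4200 bp in both conditions. Its consensus summit lay in the third intron, 5028 bp from the TSS in each. The replicate summits were 1629 bp apart after BMP6 and 283 bp apart in control cells. This peak ranked 16509 after BMP6 and 14399 in control cells. The TSS itself lay in a peak of 840 bp in BMP6-stimulated cells, rank 62076, with scores of 882 and 296, and in none of the control peaks. The furthest H3K27ac peak, 24852 and 24728 bp downstream, was within 37 and 87 bp of the TSS of LTO1.

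At Ccnd2 (ENSMUSG00000000184.14), on chromosome 6 between 127102125 and 127128023, minus strand, no SMAD peak was listed and no H3K27ac peak lay within 2 kb of the TSS in either condition. The single H3K27ac peak of the region, with rank 34421 after BMP6 and 50339 in control cells, was 20 and 11 bp from the TSS of Tigar, a regulator of glycolysis. By these lists Ccnd2 itself was therefore without the mark, in contrast to Ccnd3.

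Myc (ENSMUSG00000022346.19), on chromosome 15 between 61857227 and 61862223, plus strand, encodes a transcription factor that drives growth and entry into S phase. After BMP6, a pSMAD1/5/9 peak from 61856881 to 61857393 covered its TSS, with the summit 191 bp upstream. The peak was even between the replicates, with scores of 5905 and 5352, but weak, with rank 6534 of 7339 and 6404 and 5970 by each column. A SMAD4 peak of BMP6-stimulated cells, from 61856224 to 61856850, had its summit 778 bp upstream, with scores of 7504 and 2428 and rank 6188 of 12860. It ended upstream of the pSMAD1/5/9 peak and the pair did not overlap. Neither passed an IDR of 0.01, and control cells had no SMAD peak within 20 kb of Myc. H3K27ac at Myc was strong in both conditions, in a peak of 6860 bp after BMP6, rank 1008, and 6900 bp in control cells, rank 1626.

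Mycn (ENSMUSG00000037169.17), on chromosome 12 between 12986076 and 12991915, minus strand, encodes N-Myc, which is best known from embryonic progenitors and neuroblastoma. It had no SMAD peak, also not with 50 kb on either side. A single H3K27ac peak covered its TSS, of 5880 bp after BMP6, rank 8974, and of 5200 bp in control cells, rank 4842. H3K27ac without a listed SMAD peak was thus seen at Mycn, as in the body of Ccnd1.

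**Figure D3:**
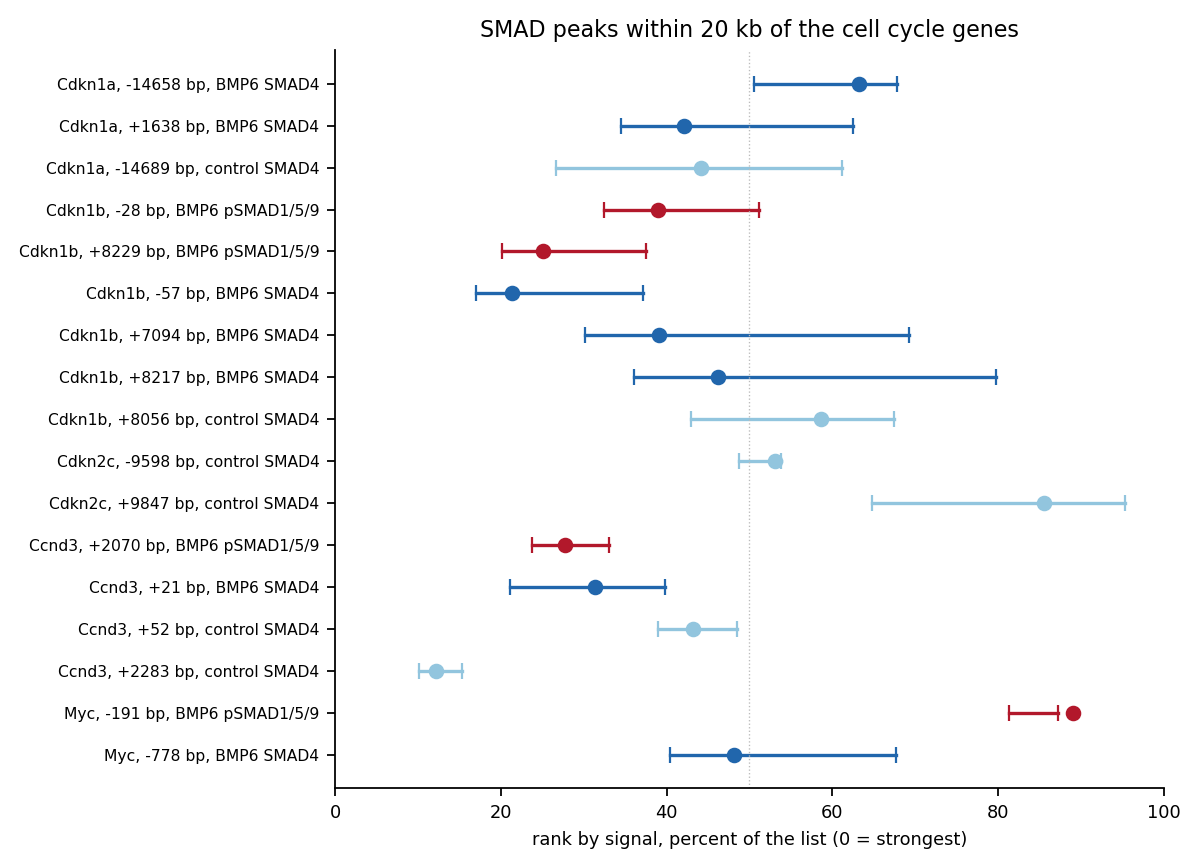
Rank by signal of the 17 SMAD peaks at the 10 genes, as percent of the list, with 0 as the strongest. Points give the rank by the sum of both replicates and the ends of the lines the rank by each replicate column alone, and labels give the summit position from the TSS. The control SMAD4 peak of Ccnd3 at +2283 bp stands at 12.2% and the pSMAD1/5/9 peak of Myc at 89.0%, beyond its ranks by column of 87.3% and 81.3%.

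In rank, the SMAD peaks of these genes were of middling strength. The strongest pSMAD1/5/9 peaks of the 3 genes with one stood at 25.1% of the list for Cdkn1b, 27.8% for Ccnd3 and 89.0% for Myc, and over all genes with a peak the median was 40.8%. The strongest SMAD4 peaks after BMP6 had a median of 36.7% over 4 genes, beside 36.0% over all genes, and those of control cells 48.7% beside 38.7%. The plot of ranks shows that the replicate columns often placed a peak far apart. Cdkn1b at 8217 bp stood at 36.1% by one column and 79.8% by the other, whereas both columns placed the control SMAD4 peak of Ccnd3 between 10.1% and 15.3%. An IDR of 0.01 was passed by 7 of the 17 peaks, which were the 4 of Ccnd3, both pSMAD1/5/9 peaks of Cdkn1b and its SMAD4 peak at the TSS after BMP6. Over the whole lists it was passed by 3674 of 7339 pSMAD1/5/9 peaks after BMP6. For SMAD4 these were 6322 of 12860 peaks after BMP6 and 3575 of 8577 in control cells. Not passing it was thus common in the lists and not particular to these genes.

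Peaks of the 2 conditions and of the 2 factors were then compared by position. Of the 7 SMAD4 peaks after BMP6, 3 overlapped a control SMAD4 peak, 42.9% with a Wilson 95% interval from 15.8 to 75.0%, beside 45.5% over the whole list. In the other direction, 3 of the 6 control SMAD4 peaks overlapped one of BMP6-stimulated cells, 50% with an interval from 18.8 to 81.2%, beside 69.7%. These shared places were the upstream peak of Cdkn1a, the downstream peak of Cdkn1b with its BMP6 summit at 8217 bp, and the TSS of Ccnd3. Not 1 of the 4 pSMAD1/5/9 peaks overlapped a control pSMAD1/5/9 peak, an interval up to 49.0%, beside 11.4% over the list. Of the same 4 peaks, 2 met a SMAD4 peak that was listed after BMP6, both at Cdkn1b, beside 73.2% over the list, and 2 overlapped a control SMAD4 peak, downstream of Cdkn1b and in the intron of Ccnd3, beside 57.2%. All 17 SMAD peaks lay in an H3K27ac peak of the same condition, beside 95.7 to 98.2% over the lists. With so few peaks the intervals, which cover counting error over peaks only, were wide and held the share of the whole list in each of these comparisons.

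**Figure D4:**
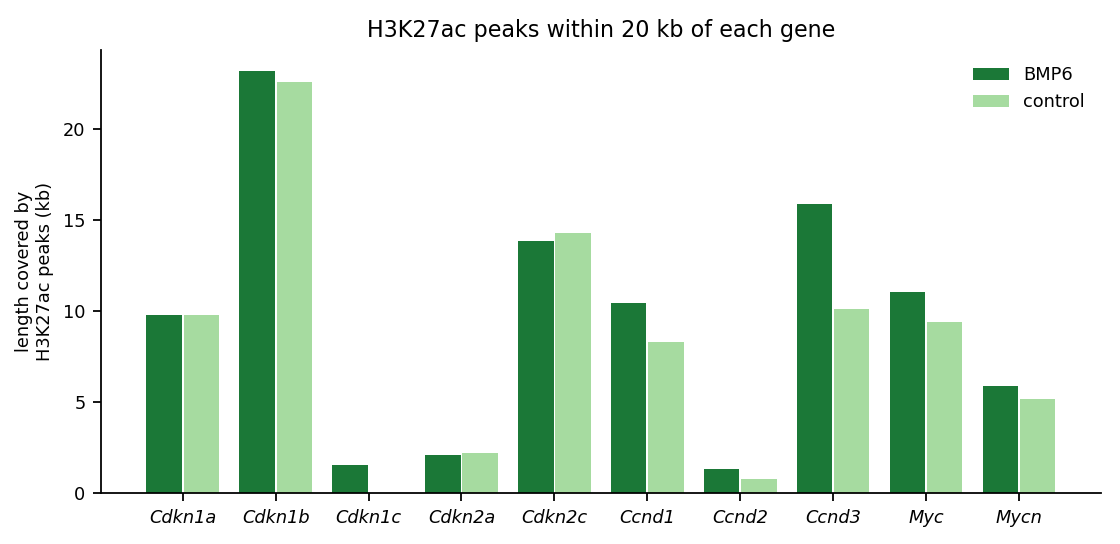
Length covered by H3K27ac peaks within 20 kb of each gene, in kb, for BMP6-stimulated cells (dark green) and control cells (light green), 1 consensus list each and without error bars. Cdkn1b has the longest coverage and Cdkn1c, Cdkn2a and Ccnd2 the shortest, and Ccnd3 shows the widest gap between the conditions.

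The plot of H3K27ac coverage shows the length around each gene that carried the mark. Cdkn1b led with 23166 bp after BMP6 and 22576 bp in control cells, which is 51.4% and 50% of its region. Cdkn1c, Cdkn2a and Ccnd2 were at the low end, between 1330 and 2100 bp after BMP6 and between 0 and 2200 bp in control cells. Over the 10 genes the median share covered was 20.9% after BMP6 and 18.7% in control cells, beside 7.07% and 5.68% over all protein-coding genes. An H3K27ac peak within 2 kb of the TSS was listed for 8 of 10 genes after BMP6, beside 55.1% of all genes, and for 7 of 10 in control cells, beside 53.0%. Ccnd3 had the largest difference in length, 15890 bp after BMP6 and 10100 bp in control cells. For 8 of 10 genes the BMP6 value was the higher, but the same share over all genes was not taken. The median over all protein-coding genes was also higher after BMP6, 7.07% beside 5.68%. All starts and ends of the BMP6 list fell on a grid of 70 bp and those of the control list on a grid of 100 bp, and the BMP6 list was longer by a ratio of 1.15. The part of both in the difference in length was not tested. By overlap, 23 of the 28 BMP6 peaks met a control peak, 82.1% with an interval from 64.4 to 92.1%, beside 72.0% over the whole list, and 27 of the 28 control peaks met a BMP6 peak, 96.4% with an interval from 82.3 to 99.4%, beside 86.8%.

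The sequences printed above differ in which motif they hold. At the TSS of Cdkn1b, the window of the pSMAD1/5/9 peak held 3 copies of GGCGCC or GGAGCC, and the window at Myc also held 3. The windows downstream of Cdkn1b and in the intron of Ccnd3 held none of these and 1 copy each of CAGCTG. So 2 of 4 pSMAD1/5/9 windows held the BMP-responsive site, beside 30.2% of all windows of that list, and 2 of 4 the E-box, beside 31.1%. Of the SMAD4 windows, 2 of 7 after BMP6 and 3 of 6 in control cells held the BMP-responsive site, beside 28.4% and 28.2%. The upstream window of Cdkn1a held none of the motifs searched. The E-box was found in no BMP6 SMAD4 window and in 1 control window, that of Cdkn2c downstream of the gene, beside 29.1% and 32.7%. Neither the SMAD palindrome GTCTAGAC, nor TGACTCA or TGAGTCA of AP-1, nor ATGGGAA or GTGGGAA of RBPJ, nor the bipartite motif occurred in a window at these genes. Over all windows of the BMP6 pSMAD1/5/9 list they occurred in 0.518%, 15.5%, 8.45% and 0.409%.

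Over whole peaks the matches were more frequent, as the sequences are longer. All 4 pSMAD1/5/9 peaks held the BMP-responsive site, beside 58.3% of the list, as did 6 of 7 SMAD4 peaks after BMP6, beside 53.0%. The E-box was held by 3 of the 4 pSMAD1/5/9 peaks, that of Myc among them, beside 55.1%. In windows of 100 bp its share among the pSMAD1/5/9 peaks was 25.0%. The split of the 4 windows by motif therefore depended on the window and was not seen over whole peaks. The SMAD4 peak of Myc held 1 copy of the bipartite motif, GGCGNCNNNNNGTCT, on the minus strand from 61856795 to 61856809, which is 425 bp upstream of the TSS and 353 bp from the summit of the peak. The bipartite motif, searched also as GACGNCNNNNNGTCT, was found in 0.785% of the BMP6 SMAD4 peaks. A match describes the letters of the window and is not a measured site. The windows were rich in GC, with a median of 59.5% for the 4 pSMAD1/5/9 windows and 62.5% for the 7 SMAD4 windows after BMP6, beside 56.0% and 55.0% over the lists.

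The 40 other cell cycle genes, among them CDKs, cyclins E, A and B, the Rb and E2F families and partners of Myc, had a SMAD peak in a larger share than the 10 regulators. A pSMAD1/5/9 peak after BMP6 was listed for 25 of 40, 62.5%, beside 29.1% of all protein-coding genes. In control cells 8 of 40 had one, beside 5.97%. SMAD4 peaks were listed for 31 of 40 after BMP6 and for 28 of 40 in control cells, beside 39.3% and 30.8%. All 40 had an H3K27ac peak in both conditions, beside 74.8% after BMP6 and 73.4% in control cells. Of the 39 with an H3K27ac peak at the TSS in control cells, 24 had a pSMAD1/5/9 peak after BMP6. That was 61.5%, beside 44.9% of all genes so marked. The median region was 56646 bp for these genes, 46174 bp for the 10 regulators and 56274 bp for all genes. No test was made between the lists, and the counts describe these genes only, which were chosen with earlier results of these data known.

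The strongest pSMAD1/5/9 peaks among the 40 belonged to Mnt, Btg2 and Gadd45b. Mnt, a partner of Max that opposes Myc, had its peak 202 bp upstream of the TSS at rank 392 of 7339, with ranks of 778 and 151 by replicate column, and SMAD4 peaks at rank 525 after BMP6 and 344 in control cells. Btg2, an antiproliferative gene, had its strongest peak 20192 bp upstream at rank 849, and that of Gadd45b, a stress-response gene, lay 15898 bp upstream at rank 957. All of these outranked each of the 4 pSMAD1/5/9 peaks at the 10 regulators. Id1, the classical BMP target, ranked higher still, at 204 for pSMAD1/5/9 and 35 of 12860 for SMAD4 after BMP6. In control cells Id1 had no pSMAD1/5/9 peak within 20 kb of the canonical transcript, as was the case for Cdkn1b, Ccnd3 and Myc. Most genes were without one, since only 5.97% of all protein-coding genes had such a peak in control cells.

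The genes most like Cdkn1b, Ccnd3 and Myc were sought by the distance in log10 rank of the strongest peak over the 6 lists. For Cdkn1b these were Arid1b at 0.15, and Tshz1 and Ptgr3 at 0.25 each, where the median distance to all genes was 1.92. Arid1b differed in one respect, as it had a control pSMAD1/5/9 peak at rank 850 of 949. Ccnd3 was closest to Ggnbp2, Pigw and Myo19, at 0.20 each, which are neighbours that share the same peaks, and Tshz1 and Ptgr3 shared theirs too. For Myc they included Omp at 0.10 and Tep1 at 0.15. Omp had no pSMAD1/5/9 peak, and its distance to Myc was small because the Myc peak itself ranked near the end of that list.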

How the data were processed

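CUT&Tag was made from primary mouse MuSCs, 2 biological replicates per antibody and condition. According to the methods, the authors subsampled reads to an equal depth per antibody and called peaks in each replicate with JAMM. Both replicates of a condition were joined with IDR at a threshold of 0.05. The submitters' processing notes name GRCm39, Bowtie2 2.5.4, SAMtools 1.21 and bedtools 2.31.1. In the deposited lists the signal is a score without a fixed range, and it equalled the sum of both replicate columns in each peak. The deposited lists also give the IDR as −log10 of the value, from which the stricter threshold of 0.01 was read. The replicate columns carry no replicate number and there are no read counts, so only the 2 replicates bear on the precision.

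The 10 genes, the 40 other cell cycle genes, the marker genes, the motifs and the alternatives were chosen with earlier results of these data known. Named genes were the 10 members, the 3 of the 40 genes with the strongest pSMAD1/5/9 peak after BMP6, Id1, the 3 genes most like each of the 3 members with the strongest pSMAD1/5/9 peak, and the protein-coding gene whose TSS was nearest to a summit that was closer to it than to the member. Some genes under these rules are not reported here. Canonical transcripts of GENCODE M39 stood in for the RefSeq Select isoforms of the methods. Promoter sequences of another genome build were not used, and sequences were read from GRCm39. Positions are 1-based. Peaks overlapped with at least 1 bp. Summits carry an uncertainty: the median distance between the summits of both replicates was 78 to 107 bp in the SMAD lists. For H3K27ac it was 254 bp after BMP6 and 187 bp in control cells. Over the lists, 25.0 to 35.2% of the consensus summits lay outside the interval between the replicate summits.

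Motifs were counted on both strands. No test was made, because each condition is 1 list per antibody, and differential binding, for which reads of each sample are needed, was not assessed. Alternatives covered the IDR threshold, the region, the transcripts, the nearest gene, the overlap, the motif window and each replicate column. Software was Python 3.11.15, numpy 2.4.6, pandas 2.3.3, scipy 1.17.1 for Wilson intervals, pysam 0.24.0 and matplotlib 3.10.9. The overlap code was tested on simulated data and recovered 600 of 600 planted overlaps of 1 bp among 2000 peaks.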

Additional observations from a re-analysis of the deposited data

How the results depend on the processing

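In the order pSMAD1/5/9, SMAD4 and H3K27ac, each as BMP6 and control, the peaks near the 10 genes numbered 4, 0, 7, 6, 28 and 28. At an IDR of at most 0.01 they numbered 3, 0, 2, 2, 25 and 25, and 2 and 1 genes instead of 4 and 4 kept a SMAD4 peak. In gene bodies alone there were 3, 0, 3, 2, 11 and 11 peaks, with a control SMAD4 peak at 1 gene. With 10 kb on either side there were 4, 0, 6, 5, 18 and 17, and with 50 kb 9, 1, 13, 12, 60 and 58, with a control pSMAD1/5/9 peak at 1 gene. The proximal region, which starts 1.5 kb before the TSS and ends 0.5 kb after it, held 2, 0, 3, 1, 8 and 6, with a control SMAD4 peak at 1 gene. All basic transcripts gave 8, 1, 13, 11, 46 and 40, with a control pSMAD1/5/9 peak at 1 gene. Counting only peaks nearest to the gene itself gave 4, 0, 7, 5, 20 and 23, and requiring the summit inside the region gave 4, 0, 7, 6, 27 and 26. With an overlap of at least 50% of both peaks, the SMAD peaks shared 0.0% with H3K27ac, whose peaks are wider, and 75.0% of the control H3K27ac peaks met one of BMP6-stimulated cells. Within 50 kb, H3K27ac covered 164592 bp after BMP6 and 148860 bp in control cells, beside 95056 and 82639 bp within 20 kb. Over whole peaks the BMP-responsive site was held by 100%, 85.7% and 83.3% of the peaks of the BMP6 pSMAD1/5/9, BMP6 SMAD4 and control SMAD4 lists, beside 50%, 28.6% and 50% of the windows, and the E-box in control SMAD4 by 0.0% in windows of 100 bp and 66.7% in whole peaks, beside 16.7%. Of 252 alternative values in all, 196 stayed within 1.5 times the count, or within the interval or replicate spread of the value. This count is not a measure of stability. Among the values, 60 were ranks by 1 replicate column, set against the spread between the replicate columns themselves. The intervals of the shares rested on few peaks and were wide. No paired analysis was possible because the results come from no test and the replicate columns carry no numbers.

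The number of reads behind each peak is unknown, each condition is 1 consensus list, and most SMAD4 peaks named here were near the threshold. The SMAD4 counts moved with the threshold and with the region, with a higher count at Cdkn1a in the wider region and at Ccnd3 with all basic transcripts.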
